A study of Mus with 2 samples.

Results

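The cluster that the authors labelled endo was examined in single-cell RNA sequencing of kidney from young and senescent mice of the C57BL/6 strain. Its members were all genes listed for that cluster in the authors' deposited table whose young or senescent mean reached 0.1. These were 1016 of the 1028 genes listed for the cluster, out of 20111 entries for 8191 distinct genes in 7 clusters. The other 12 listed genes fell under the minimum, and all of them were lower in the senescent library. Just inside the minimum were Cyp4f39, A430027H14Rik and Orai2, each with a young mean of 0.118, and just outside it were Tle2, Zfp991 and Ttc39a, each with a young mean of 0.0977.

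Each group was 1 droplet library, and the series states 10895 cells for the young and 4408 cells for the senescent mice. The sources used here do not give the ages or sex of the mice, the number pooled in a library or the number of cells in the cluster. The sample labels give both groups the same strain name and no treatment or engineered allele. The authors' deposited table names its contrast as C57 against WT with a numeric code, which is not explained, so group identity and the direction of every difference rest on the sample descriptions. Values are the authors' mean signal per cell of a cluster, on a scale that is not stated. A spread between mice could not be measured from single libraries, and no value below has an SD or a test between mice.

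Endothelial cells line the glomerular capillaries, the peritubular capillaries and the larger vessels of the kidney. They are usually recognised by the adhesion molecule gene Pecam1, the sialomucin gene Emcn, the VEGF receptor gene Kdr and Plvap, which encodes the diaphragm protein of fenestrated endothelium. The renal pelvis, by contrast, is lined by a urothelium whose surface cells carry plaques built of uroplakin proteins, and simple epithelia are filled with keratins such as those encoded by Krt8 and Krt18.

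None of Pecam1, Emcn, Kdr and Plvap was listed for the cluster labelled endo. Of a wider list of 30 endothelial markers, 0 were listed there. In other clusters 5 of the 30 appeared, namely Pecam1 in B (young 0, senescent 0.703), Fli1, Esam, Cd93 and S1pr1, and 25 were listed nowhere. The authors' deposited table holds a gene only at a p under 0.05 with a log2 fold change of 0.36 or more in size, so a marker with similar means in both libraries would be missing from it. The endothelial label could therefore not be checked against its markers. The table does list uroplakin, keratin and related epithelial genes for it, and the cluster is therefore called by its deposited label only.

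The precision of the young means was low in this cluster. The smallest young mean above 0 was 0.0365, against 0.00179 in the senescent library, and 169 members were listed at 0 in the young library. Of the 859 young means above 0, 147 (17.1%) were identical to the last deposited digit to the mean of another gene of the cluster, the highest of them at 0.593, whereas 0 of 1025 senescent means were. For comparison, 0 of 5037 young means in PT had such a twin and 334 of 368 in Neutro did. Members at 0 in the young library had senescent means from 0.204 to 5.64, with a median of 0.324, and no fold is given for them. Differences from a young mean near the smallest one are uncertain in size, also for genes below where this limit is not repeated.

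Of the 1016 members, 496 (48.8%) had a higher mean in the senescent library and 520 (51.2%) a lower one. Among members above 0 in both libraries, the higher ones differed by 1.28-fold to 64.8-fold with a median of 3.70-fold, and the lower ones by 1.29-fold to 112-fold with a median of 2.37-fold. The log2 ratio used below divides the senescent by the young mean, with 1 added to both, and its median over all members was -0.10. That median was 0.082 when the epithelial and proximal tubule genes described below were left out. Most of those genes were lower and the epithelial list was assembled after values were seen, so a rise was built in. In the authors' deposited table, 10 members (0.984%) passed an adjusted p of 0.05 and an absolute log2 fold change of 1, of which 4 (0.394%) were higher and 6 (0.591%) lower. The test behind that adjusted p is not given, and with a single library per group it can measure no spread between mice. Members with a mean of 5 to under 20 in the higher library were higher in the senescent library in 32 of 91 cases (35.2%), against 174 of 342 (50.9%) for those under 0.5.

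**Figure D1:**
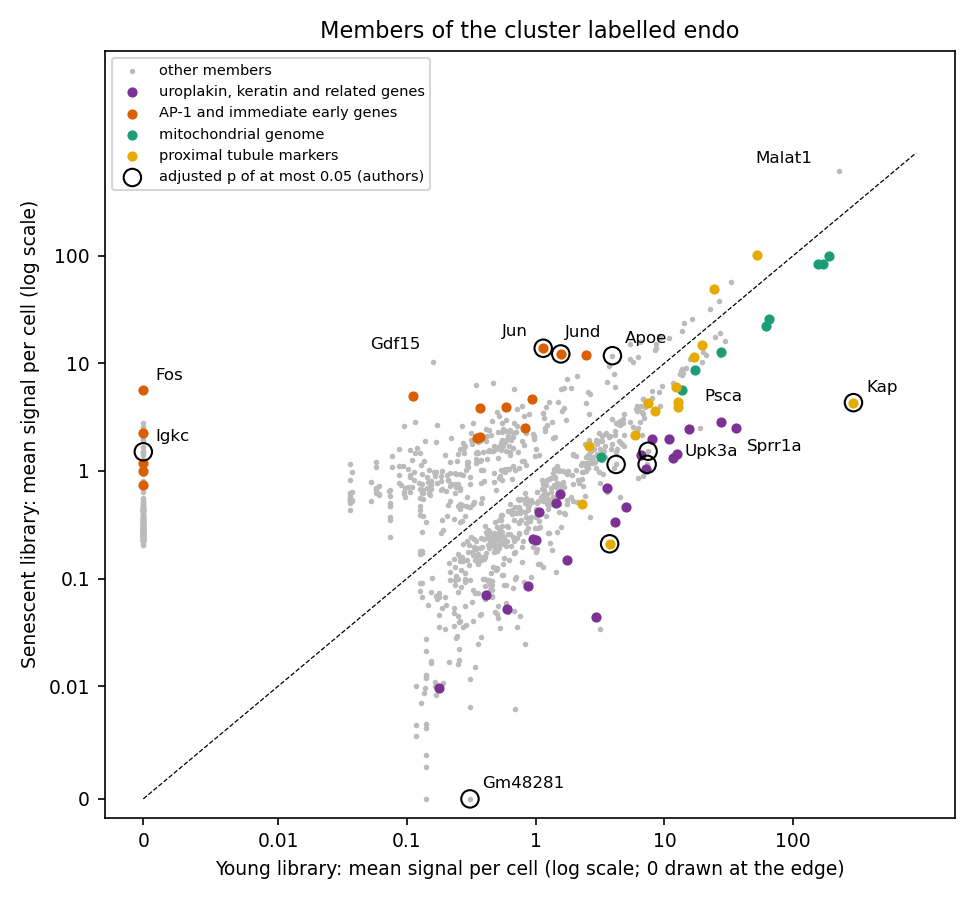
Mean signal per cell of the 1016 members in the young library (x axis, log scale, 0 drawn at the edge) and in the senescent library (y axis, log scale, 0 drawn at the edge). Each point is a gene, coloured by gene list, and circles mark the 10 genes past the authors' adjusted p. The epithelial genes lie below the dashed line of equal means and the AP-1 and immediate early genes above it.

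Of the 10 members with the lowest log2 ratios, 6 were genes of lining epithelium (Sprr1a, Psca, Krt18, Krt19, Upk3a and Upk1b). Psca, which encodes a small membrane-anchored surface antigen, had a young mean of 27.5 and a senescent mean of 2.86. Upk3a, a uroplakin gene, had means of 15.5 and 2.45. Sprr1a, which encodes a precursor protein of the cornified cell envelope, had means of 36.1 and 2.48 and was thus 14.5-fold lower. The values of these 3 genes were high in the young and low in the senescent library, and none passed the adjusted p.

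Of 6 uroplakin genes 5 were listed, all lower, and Upk3bl was not listed. Upk1a had means of 6.62 and 1.41. Upk1b had means of 5.04 and 0.467. Upk2 had means of 3.55 and 0.694, and Upk3b had means of 1.01 and 0.229. Uroplakins Ia and Ib are tetraspanins that pair with uroplakins II and IIIa, and the genes of both partners in each pair were thus listed as lower.

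Keratins, which form intermediate filaments as pairs of a type I and a type II chain, were listed in 4 cases. The type II gene Krt8 had means of 10.8 and 1.98, and its usual partner Krt18 had means of 12.5 and 1.42. Krt19, another type I gene, had means of 11.6 and 1.32, and the type II gene Krt7 had means of 7.23 and 1.05. The fold differences of these keratins lay between 5.46 for Krt8 and 8.81 for Krt18. Keratins of basal or stratified cells (Krt5, Krt14, Krt15 and Krt17) and Krt20 were not listed.

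A list of 47 uroplakin, keratin and other lining-epithelium genes was assembled after these values had been seen, and it is a description only. Of these, 23 were members, and all 23 were lower in the senescent library, at fold differences of 2.53 to 66.4 with a median of 6.89. Their median log2 ratio was -1.60, against -0.10 for all members, and 0 of the 23 passed the adjusted p. The junction genes Cdh1 (1.55 and 0.614), which encodes E-cadherin, Cldn8 (0.962 and 0.233) and Cldn23 (0.873 and 0.0849) and the transcription factor gene Grhl3 (0.178 and 0.00971) were among them. Summed over the 23 genes, mean signal was 162 in young and 20.9 in senescent cells, which is 5.48% and 0.783% of the sum over all members.

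Few other clusters listed these transcripts. Of the 23 genes, 16 were listed in no other cluster, where their level is therefore not known. Of the other 7, 6 had a young mean in endo above every mean listed elsewhere in either library. Krt8, for instance, reached at most 0.407 in another cluster, and Krt7 at most 0.266. The exception was Mal, with 8.08 and 2.00 in endo and up to 8.17 in LOH. The senescent means of Krt8 (1.98), Krt7 (1.05) and Sprr1a (2.48) were also above every mean listed outside endo. Lists of markers of other epithelial cells hold some of the same genes, and the part of such cells in the result was not tested. Of 32 markers of the loop, distal tubule and collecting duct 5 were members, Krt8, Krt18 and Krt19 among them, 4 of them lower, with sums of 35.4 and 5.31. Of 16 markers of injured epithelium 4 were members, namely Krt19, Krt7, Clu and Cp, 3 of them lower, with sums of 29.6 and 7.10. Whether fewer cells with these transcripts or less transcript per cell gave the lower mean cannot be told apart in a cluster mean.

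**Figure D2:**
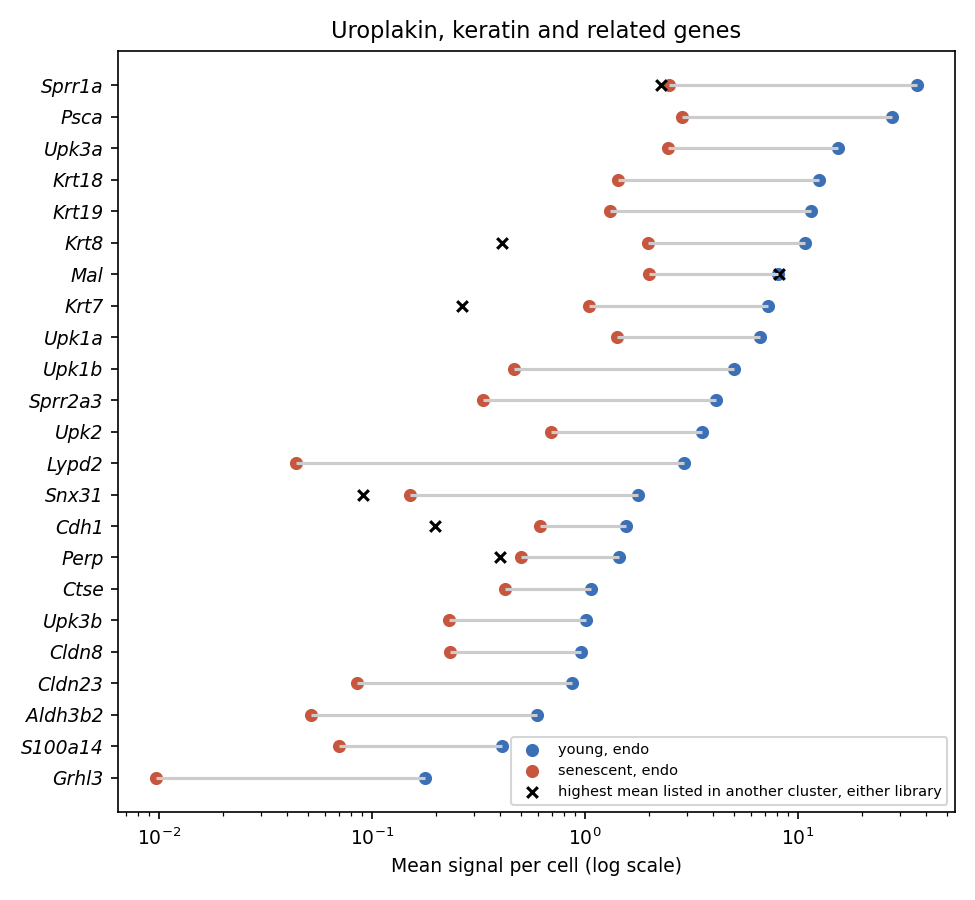
Mean signal per cell (x axis, log scale) of the 23 listed uroplakin, keratin and related genes in the cluster labelled endo, in the young library (blue) and the senescent library (red), with the highest mean listed in any other cluster (crosses, where listed). Every blue point lies to the right of its red point, by 2.53-fold to 66.4-fold.

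Other members with a young mean above those listed for other clusters included genes of both directions, and those named here are examples. Nupr1, a stress-induced nuclear protein gene, had means of 19.0 and 2.53 in endo, while Marco had 0.121 and 1.74. Clu, which encodes the secreted chaperone clusterin, had means of 10.7 and 2.06, and the highest young mean elsewhere was 0.331 in PT. Fmo5, a flavin-containing monooxygenase gene, had means of 6.28 and 0.858, against a young mean of at most 0.558 elsewhere. These 3 genes were lower in the senescent library, whereas C3, Cp, Cfi (0.115 and 0.982), Klf6 and Cstb (4.15 and 5.97), whose young means were also more than 2 times those listed elsewhere, were higher. Among the 856 members also listed in another cluster, the young mean in endo exceeded 2 times the highest other young mean in 105 (12.3%), and the senescent mean did so in 70 (8.18%). The 105 also hold lower genes of the epithelial list, such as Krt8, and were not counted by direction, so the examples give no balance. Nupr1 and Clu fell under the rule for named genes, and Fmo5 and Cstb were chosen after their values were seen.

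Members that no other cluster listed were mostly lower. Of 160 such genes, 146 were lower and 14 higher in the senescent library (8.75% higher, against 48.8% of all members). Besides the epithelial genes they included Hspb1 and Cd9, which encodes a tetraspanin, with means of 6.26 and 2.49. Of the 174 members that 1 other cluster listed, 102 (58.6%) were higher, and of the 172 that 5 others listed, 64 (37.2%) were. All clusters come from the same 2 libraries, and how many genes a cluster lists moves with the precision of its means.

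**Figure D3:**
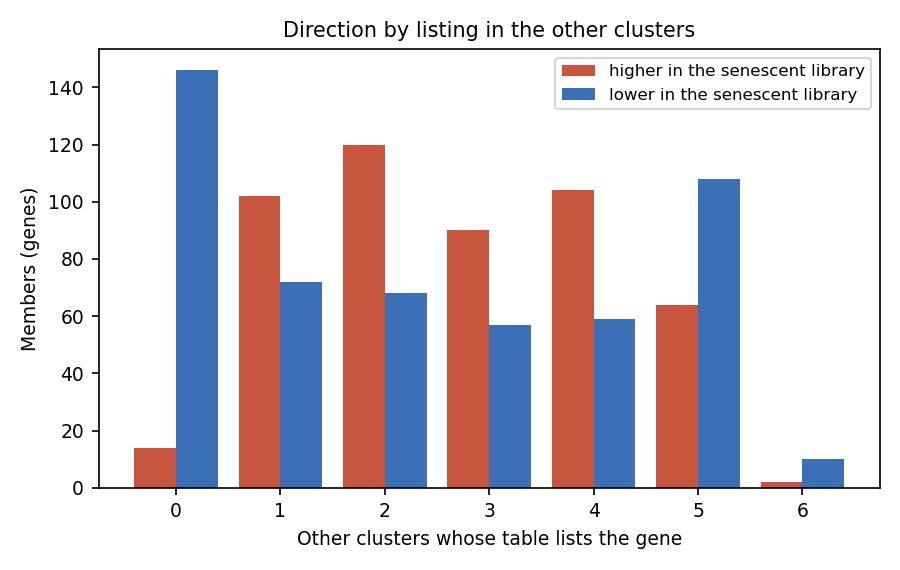
Number of members (y axis, genes) that were higher (red) or lower (blue) in the senescent library, by how many of the 6 other clusters list the same gene (x axis). The 160 genes listed in no other cluster comprised 146 lower and 14 higher genes.

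AP-1 is a dimeric transcription factor of Jun and Fos proteins. Several but not all of its genes are immediate early genes, which are transcribed within minutes of a stimulus such as a growth factor or stress. Jun rose from 1.15 to 13.8, a 12.0-fold difference, with an adjusted p of 0.00440 in the authors' deposited table. Jund rose from 1.57 to 12.2, a 7.79-fold difference, with an adjusted p of 0.000223 in the authors' deposited table. The third Jun gene, Junb, had means of 0.593 and 3.90 and did not pass. The young mean of Junb was identical to that of another listed gene.

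Of the Fos genes, Fos was listed at 0 for young and 5.64 for senescent cells, with an adjusted p of 0.0656 in the authors' deposited table, and Fosb was listed at 0 and 2.27. Dusp1, which encodes a phosphatase that switches off MAP kinases, had means of 0.112 and 4.92 and an adjusted p of 0.0519 in the authors' deposited table. The mRNA-destabilising protein genes Zfp36l1 (2.45 and 11.8) and Zfp36 (0.353 and 2.01) and the antiproliferative gene Btg2 (0.372 and 3.84) were higher without passing. Egr1 and Myc had senescent means of 1.00 and 1.18 and were at 0 in young cells.

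In all, 15 of the 36 genes of the AP-1 and immediate early list were members. All 15 were higher by a log2 fold change of at least 1 in the authors' deposited table, a size that 41.9% of all members reached upwards and 33.1% downwards, and 2 of the 15 passed the adjusted p, against 0.394% of members. Their median log2 ratio was 1.62, against -0.10 for all members, and their summed mean signal was 8.74 in young and 72.6 in senescent cells. Of the 15, 5 were at 0 in the young library.

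Heat shock and chaperone genes, which protein stress induces, mostly had lower means. Hspb1, a small heat shock protein gene, had means of 6.81 and 0.907 and was listed in no other cluster. Hspa1b, which encodes inducible HSP70 and has a near-identical neighbour, Hspa1a, from which its reads may not be separable, had means of 4.51 and 0.578. The constitutive chaperone gene Hspa8 had means of 13.7 and 8.80, and the mitochondrial chaperonin gene Hspd1 had means of 6.82 and 3.42. Of 7 members among 23 genes, 6 were lower, against 51.2% of all members. Only Herpud1, of endoplasmic reticulum stress, was higher (0.629 and 2.36). The median log2 ratio was -0.82, and 0 passed the adjusted p.

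Genes of stress and growth arrest held the member with the highest log2 ratio. Gdf15, a stress-induced cytokine of the TGF-beta family, had means of 0.159 and 10.3, a 64.8-fold difference, with an adjusted p of 0.531 in the authors' deposited table. Cdkn1a, the gene of the cyclin-dependent kinase inhibitor p21, had means of 0.116 and 1.47, and Gadd45a had means of 0.0579 and 1.22. Cdkn2b, which encodes the inhibitor p15, had means of 0.484 and 0.0490 and so lay in the opposite direction. The list of cellular senescence and growth arrest had 6 members among its 26 genes, of which 4 were higher and 2 lower. Their median log2 ratio was 1.11, and 0 passed. That median was 0.42 when genes with a higher young mean in PT were left out. The young means of Gdf15, Cdkn1a and Gadd45a were near the floor of the young library, so the size of their fold differences is uncertain.

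**Figure D4:**
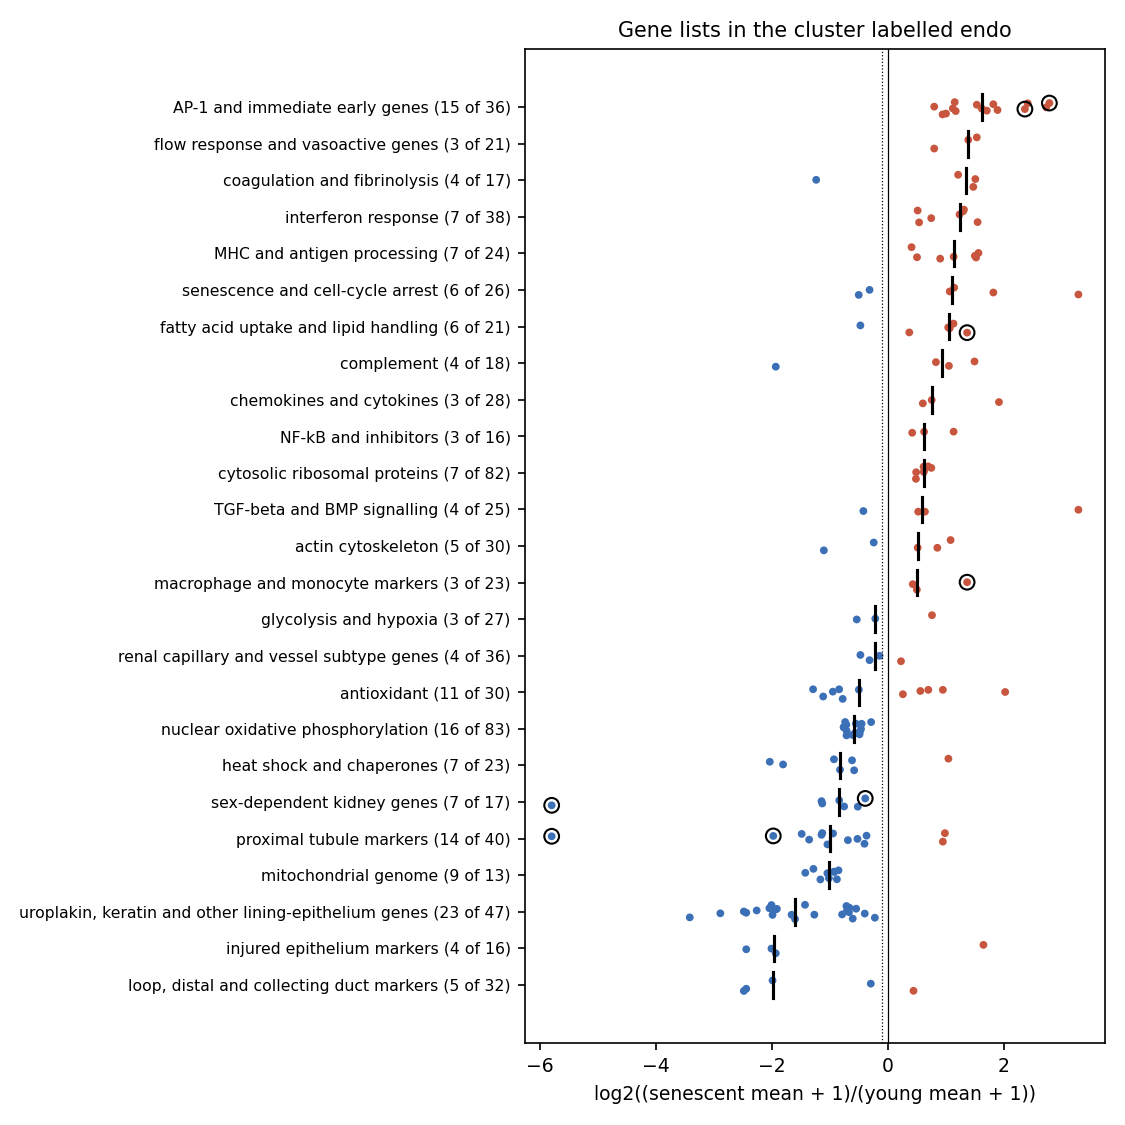
Log2 ratio of senescent to young mean, with a pseudocount of 1 (x axis) for members of each gene list with at least 3 members (y axis, members of genes in the list). Points are genes, red when higher and blue when lower in the senescent library, black bars are medians, circles mark genes past the authors' adjusted p, and the dotted line is the median of all members. The AP-1 list has the highest median, 1.62.

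Genes of antigen presentation had higher means in the senescent library without passing the adjusted p. The class II genes H2-Eb1 (0.267 and 2.64), H2-Ab1 (0.782 and 4.04) and H2-Aa (0.561 and 2.43) and the invariant chain gene Cd74 (1.77 and 7.18) were higher. B2m, the light chain of class I molecules, had means of 5.39 and 10.96. Of 24 genes, 7 were members, and all 7 were higher, against 48.8% of all members. Their median log2 ratio was 1.14, 2 of them were at 0 in the young library, and 0 passed. The class II transactivator gene Ciita was listed at 0 and 0.328.

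Interferon response genes had the same direction. Ifi27 had means of 0.220 and 2.03, Bst2, which encodes the virus-tethering protein tetherin, had means of 0.121 and 1.64, and the guanylate-binding protein gene Gbp2 was listed at 0 and 1.46. Ifit3 was listed at 0 and 1.92 and in no other cluster. Of 38 genes, 7 were members, and all 7 were higher, against 48.8% of all members. Their median log2 ratio was 1.24, 4 of them were at 0 in the young library, and 0 passed.

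Of 18 complement genes 4 were members, 3 higher and 1 lower, and 0 passed. Their median log2 ratio was 0.94, but their sum was 11.3 in young and 7.47 in senescent cells, since Clu (10.7 and 2.06) was the lower one. C3 (0.516 and 3.27), C4b (0.0365 and 1.15) and Cfi were higher. Outside that list, the chemokine gene Cxcl1 was listed at 0 and 2.78, and the ceruloplasmin gene Cp had means of 0.172 and 2.68. The senescent means of Cxcl1, C3 and Cp in endo exceeded those listed in PT, which were 0.644, 1.24 and 0.606. The young mean of C4b equalled the lowest young mean above 0 in the cluster. The chemokine scavenger receptor gene Ackr3 had means of 0.106 and 0.870.

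Few transcripts of immune cells were listed. Igkc, the immunoglobulin kappa constant region gene, rose from 0 to 1.51, with an adjusted p of 0.0123 in the authors' deposited table. The neutrophil genes S100a8 and S100a9 were listed at 0 and at 1.55 and 1.67. Of 23 macrophage and monocyte markers, 3 were members, namely Apoe, Fcer1g (0 and 0.415) and Lyz2 (0 and 0.348). Their summed signal was 3.95 in young and 12.5 in senescent cells, of which Apoe alone gave 3.95 and 11.8. Apoe and Igkc were each higher in all 6 clusters that list them, endo included. Fcer1g and Lyz2, at 0 in the young library, could only be higher. Of 18 B and plasma cell markers Igkc alone was listed, of 12 neutrophil markers 2 were, and of the T and NK cell, erythroid and platelet, podocyte, and mural and fibroblast markers 0 were. The macrophage markers Adgre1 and Csf1r and the B cell markers Cd79a and Ms4a1 were not listed. The part of such transcripts in the higher MHC class II means was not tested.

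Apoe, which encodes the lipid carrier apolipoprotein E, rose from 3.95 to 11.8, a 2.98-fold difference, with an adjusted p of 0.000178 in the authors' deposited table. Other genes of lipid handling were higher without passing. The lipoprotein lipase inhibitor gene Angptl4 had means of 0.0773 and 1.36, the lipid droplet gene Plin2 had means of 0.414 and 1.91, and the acyl-CoA synthetase gene Acsl1 had means of 0.323 and 1.77. The fatty acid-binding protein gene Fabp5 was lower (0.842 and 0.328). Of 21 genes in that list 6 were members, 5 of them higher, against 48.8% of all members. The median log2 ratio of the 6 was 1.05. The endothelial fatty acid uptake genes Cd36, Fabp4 and Gpihbp1 were not listed.

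Some genes of endothelial pathways were listed. An unlisted gene may still have been expressed, since only genes that differed are listed. The share of all measured genes that was listed is not given, so the counts below are not set against it. Of 26 genes of VEGF, angiopoietin and Notch signalling only Vegfb was listed, at 0.167 and 0.892, and of 22 genes of junctions and caveolae 0 were. Among genes of flow response and vessel tone, Klf6 (0.944 and 4.63), the taurine transporter gene Slc6a6 (1.59 and 5.76) and Klf4 (0 and 0.742) were higher, whereas Klf2, Nos3 and Edn1 were not listed. Of 36 genes that mark renal vessel types, 4 were members, with Ly6c1 higher (0.140 and 0.335) and Igfbp5, Fabp5 and Slc14a1 lower, and 0 passed. Of 17 genes of coagulation and fibrinolysis 4 were members, with the urokinase gene Plau (0.106 and 1.56), Gas6 (0.327 and 2.78) and S100a10 (2.11 and 7.64) higher and Anxa2 (3.18 and 0.778) lower. S100a10 and Anxa2, whose proteins form a complex, thus lay in opposite directions.

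The 6 genes that fell past both thresholds were Kap, Ugt2b38, Inmt, Acy3, Pecr and Gm48281. Kap, an androgen-induced gene of the proximal tubule, fell from 294 to 4.31, with an adjusted p of 4.72e-31 in the authors' deposited table. Inmt, which encodes a methyltransferase of indole amines, fell from 3.76 to 0.211, a 17.8-fold difference with an adjusted p of 1.99e-05 in the authors' deposited table. Ugt2b38, a glucuronosyltransferase gene of a family with similar members, fell from 7.34 to 1.15, Acy3, an aminoacylase gene, from 7.47 to 1.53, and Pecr, a peroxisomal reductase gene, from 4.22 to 1.15.

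Each of these genes was lower in other clusters as well. In Marco, Inmt had means of 7.36 and 0.0415, and in PT, Pecr had means of 10.1 and 1.97. In LOH, Inmt had means of 3.22 and 0.233 and Pecr had means of 3.13 and 0.245. Jun had means of 0.585 and 16.2 in PT, 1.31 and 5.91 in LOH, and 1.20 and 2.15 in B. The clusters share the same 2 libraries, so these values are not independent of those in endo.

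**Figure D5:**
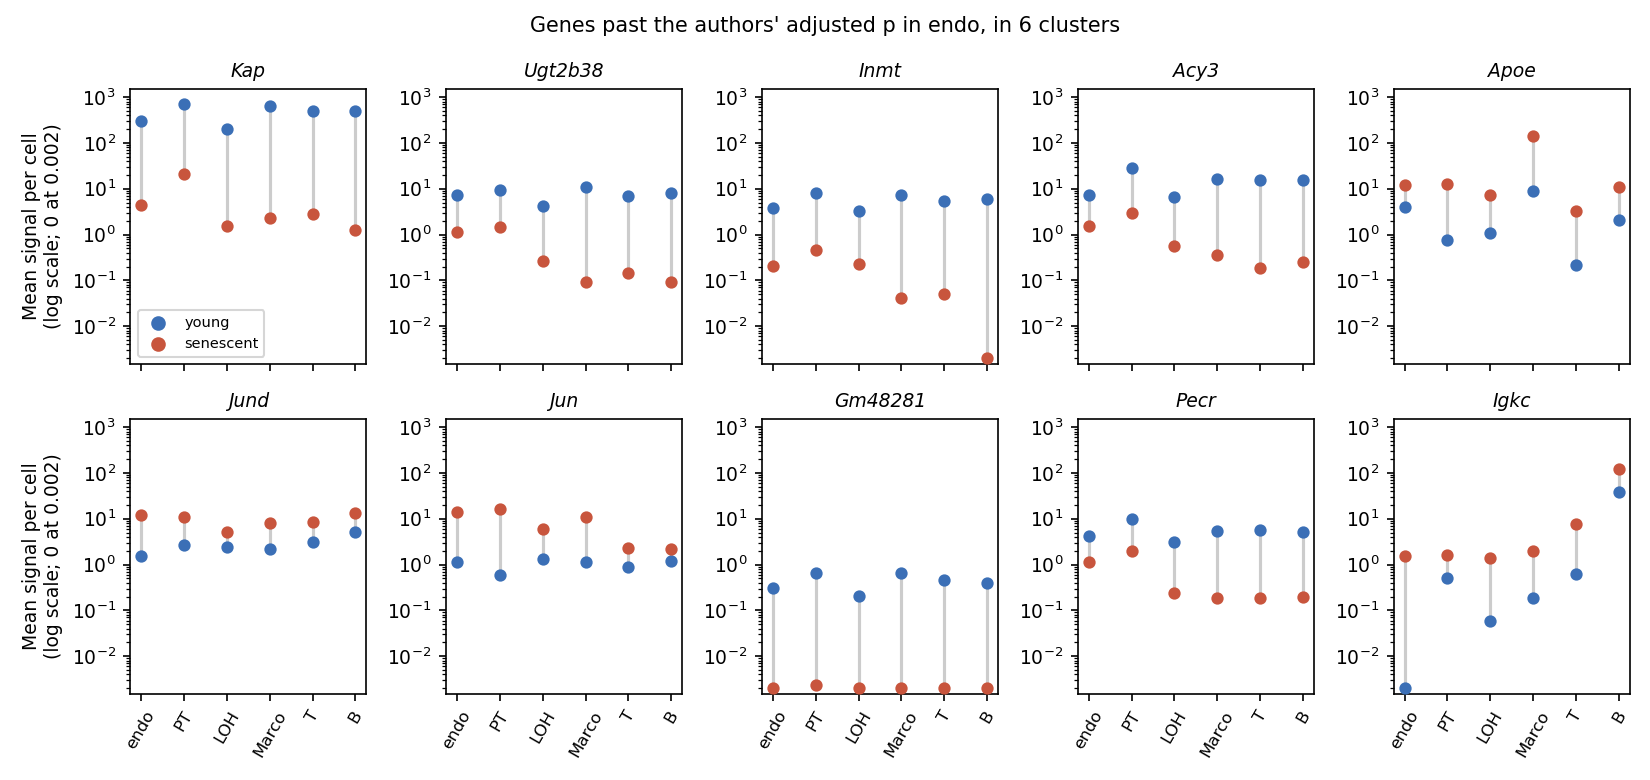
Mean signal per cell (y axis, log scale, 0 drawn at 0.002) in the young (blue) and senescent (red) library of the 10 genes past the authors' adjusted p in endo, in 6 clusters (x axis). Each gene keeps its direction in every cluster shown, and the senescent mean of Kap is 4.31 in endo and 21.4 in PT.

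Of the other proximal tubule markers, some had senescent means above 4 and others, such as Slc7a13 (2.29 and 0.491), did not. The phosphate transporter gene Slc34a1 had means of 17.0 and 11.5, and Gatm, of creatine synthesis, had means of 12.7 and 4.35. Both exceptions were higher in the senescent library, namely Gpx3, the secreted glutathione peroxidase (52.3 and 102), and Spink1, a trypsin inhibitor (24.3 and 49.1). Of 40 markers 14 were members, 12 lower and 2 higher, against 51.2% of all members lower, and their median log2 ratio was -0.99. Kap and Inmt passed downwards, 2 of the 14, against 0.591% of all members. Their sum was 475 in young and 208 in senescent cells, and without Kap it was 181 and 204.

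A list of 17 kidney genes taken as sex-dependent had 7 members, all lower, against 51.2% of all members. Besides Kap and Gm48281 these were Slco1a1 (0.695 and 0.00619), Acsm3 (0.831 and 0.0247), Cyp4a12a (0.511 and 0.0560), Slc7a13 and Cyp4b1. Kap and Gm48281 passed downwards, 2 of the 7, against 0.591% of all members. Gm48281 had a low young mean of 0.309 and was listed at 0 in the senescent library, so no fold is given for it. Slco1a1, an organic anion transporter gene, had the largest fold difference of any member above 0 in both libraries, at 112. The sex of the mice was not given, and its part in these values was not tested.

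Transcripts of the mitochondrial genome were lower in the senescent library for all 9 members among 13 genes, against 51.2% of all members. The complex I genes mt-Nd1 (64.8 and 26.1), mt-Nd2 (61.0 and 22.1) and mt-Nd3 (13.8 and 5.61) differed by 2.46-fold to 2.76-fold. The cytochrome b gene mt-Cytb had means of 171 and 84.1, and mt-Atp6, of ATP synthase, had means of 189 and 99.0. Their median log2 ratio was -1.01, their sum was 702 in young and 343 in senescent cells, and 0 passed.

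Nuclear genes of oxidative phosphorylation were lower in all 16 members among 83 genes, against 51.2% of all members. These genes had a median log2 ratio of -0.59 and 0 past the adjusted p. They included the complex III gene Uqcrq (13.8 and 7.74), the complex IV gene Cox5a (13.8 and 8.06) and the cytochrome c gene Cycs (11.7 and 6.62). Antioxidant genes were divided, with 5 higher and 6 lower of 11. Txnip, an inhibitor of thioredoxin, had means of 0.676 and 5.81, whereas Sod2, the mitochondrial superoxide dismutase, had means of 6.46 and 2.87 and Prdx5 had means of 29.7 and 16.2. Cytosolic ribosomal protein genes were higher in all 7 members among 82 genes, against 48.8% of all members. They had a median log2 ratio of 0.62, and 0 passed. Rps19 (14.3 and 23.8) and Rpl23 (26.6 and 37.7) were among them. Malat1 is a nuclear noncoding RNA whose share of all signal is often used as a sign of RNA quality and of nuclear content. It had means of 226 and 609, or 7.66% and 22.8% of the summed signal of all members. That sum covers only the listed members, so its share of all signal in a cell is smaller and is not known. The part of Malat1 in the lower mitochondrial and chaperone values was not tested.

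In the mouse build GRCm38 (mm10), Jun lies on chromosome 4 from 95049036 to 95052222, Jund on chromosome 8 from 70697739 to 70700616, Apoe on chromosome 7 from 19696244 to 19701310 and Kap on chromosome 6 from 133849855 to 133853667. Upk3a lies on chromosome 15 from 85017141 to 85022560 and Psca on chromosome 15 from 74714839 to 74717065. Krt7 (101412403 to 101427806), Krt8 (101996711 to 102004342) and Krt18 (102028216 to 102032026) lie in one keratin cluster on chromosome 15. All 9 genes are annotated as protein coding, and values are per gene.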

How the data were processed

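The assay was droplet single-cell RNA sequencing of mouse kidney, with 1 young and 1 senescent library. Per the submitters' processing notes, Cell Ranger 2.1.1 and mm10 were used. How cells were filtered and clustered, how doublets and free RNA were treated, and which test was used is not given in the sources used here. A table of 7 clusters was deposited by the authors, and its columns hold the mean signal (never negative, scale not stated), a log2 fold change, a p-value and an adjusted p. The authors' log2 fold change adds 0.0001 to each mean. Their deposited adjusted p-value is headed a false discovery rate, but equalled the p-value times about 32565 (median) in this cluster. Depth is unknown. Library columns were assigned by the sample descriptions, on which every direction rests.

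Computed here were counts, folds, and log2 ratios with a pseudocount of 1, with no test between groups. The members and lists were chosen with earlier results of these data known. Named were genes past the adjusted p, 10 at each end of the log2 ratio, the 10 with the highest means, and up to 6 per list. Other uroplakin, keratin and lining-epithelium genes, Fmo5, Cstb, and list members beyond those were chosen after their values were seen. Of the members, 996 (98.0%) matched RefSeq symbols of GRCm38. The steps were tested on simulated data. Python 3.11.15, numpy 2.4.6, pandas 2.3.3 and matplotlib 3.10.9 were used.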

Additional observations from a re-analysis of the deposited data

Results flagged for a closer look

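Among 132 genes looked at in both endo and PT, 8 differed in direction between these clusters. The 132 were named genes and others chosen after their values were seen, and the share over all members listed in both is not given. With single libraries, that difference was not tested. Foxq1, a forkhead transcription factor gene, had a log2 ratio of -1.11 in endo (4.83 and 1.70) and 1.32 in PT (0.0150 and 1.54). Gsta4, a glutathione transferase gene, had -1.29 in endo (6.73 and 2.17) and 0.89 in PT (0.306 and 1.42). Alcam, an adhesion molecule gene, had -1.47 in endo (3.56 and 0.643) and 0.40 in PT. The mitochondrial genes mt-Nd4l and mt-Atp8 had log2 ratios of -1.04 and -0.85 in endo and 0.71 and 0.24 in PT. Smad4, of TGF-beta signalling, had -0.42 and 0.41, and Cdh1 had -0.66 and 0.13. Lyz2 had 0.43 in endo and -0.14 in PT. Foxq1, Alcam, mt-Atp8 and Cdh1 were chosen after their values were seen.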

How the results depend on the processing

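Counts of members followed the minimum mean. The number higher in the senescent library was 322 at a minimum of 0.5 and 204 at a minimum of 1, and the number lower was 246 at a minimum of 1. Leaving out the 389 genes with a higher young mean in PT gave 225 higher and 402 lower. Leaving out genes listed at 0, chosen after seeing the data, gave 327 higher and 518 lower. The median log2 ratio reversed to 0.082 without the epithelial and proximal tubule genes, also chosen after seeing the data. Leaving out mostly lower genes raises the median by construction. With the fold rule alone, 426 genes were higher and 336 lower by a log2 fold change of 1. The other 25 alternatives of these results stayed within 1.5 times or kept direction. Centring makes the overall median 0 by construction. Medians of gene lists stayed within 1.5-fold of the reported value in 148 alternatives, moved in 32 and reversed in 0, and log2 ratios of named genes did so in 239, 163 and 0. For named genes only the value added to both means was varied. That cannot change the sign of a log2 ratio, so their 0 reversals were fixed beforehand and say nothing about direction. The list medians that moved were larger in size under a pseudocount of 0.1 or the authors' deposited log2 fold change, and that of senescence and growth arrest was also smaller, at 0.42, without the genes higher in young PT. No paired analysis was possible because each group had 1 library.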

Other observations

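The authors' own pathway annotation covers 487 members, and disease and overview maps were left out. Oxidative phosphorylation and thermogenesis, with 30 members each, were the largest pathways and had 29 and 27 lower. Endocytosis and retrograde endocannabinoid signalling had 10 and 15 of 16 lower. Of all members 51.2% were lower. Oxidative phosphorylation, thermogenesis and retrograde endocannabinoid signalling share genes, with mt-Nd1, mt-Nd2 and mt-Nd3 among the largest differences of each. Their counts are therefore not separate results. The largest pathway with more higher than lower members was MAPK signalling. There 15 of 22 were higher (68.2%, against 48.8% of all members), at a median log2 ratio of 0.48. Focal adhesion had 13 of 16 members higher and a median of 0.60. PI3K-Akt signalling had 13 of 19 higher and a median of 0.64, both against 48.8% of all members higher. Members of these pathways included the growth factor receptor gene Igf1r (0.593 and 2.97), the integrin genes Itgb8 (0.358 and 1.85) and Itgav (0.114 and 0.821), and the platelet-derived growth factor gene Pdgfb (0.0876 and 1.11). Spliceosome genes were higher in 12 of 20 (60%), near the share of all members, with Srsf5 (1.17 and 3.08) and Tra2b (0.542 and 1.82) among them. The spliceosome member with the log2 ratio largest in size was Hspa1b, which was lower. Hspa1b and Hspb1 were also lower members of MAPK signalling. Apart from Jun and Jund in MAPK signalling and Jun in focal adhesion, 0 members of these pathways passed the adjusted p. Igf1r, Itgb8, Itgav, Pdgfb, Srsf5 and Tra2b were chosen after their values were seen.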
